A study of Mus musculus with 6 samples.

Results

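Lysosomal hydrolases and lysosomal membrane proteins are described here by 36 genes, chosen by gene name from the 54532 genes of a mouse liver count table. Each name matched 1 gene, and all 36 passed the filter on low counts that left 13693 genes for testing. They were described as 9 cathepsins, 9 glycosidases, 3 sulfatases, 6 lipid hydrolases and activator proteins, 2 cholesterol transfer proteins, 4 membrane proteins, and 3 further members. The livers were those of male littermates, of which 3 carry the label wild type (WT, replicates 1, 2 and 3) and 3 the label Trem2-deficient (KO, replicates 4, 5 and 6). All 6 had been fed a high-fat diet for 8 weeks from 8 weeks of age, so that no liver on another diet stands beside them. RNA of the whole liver was sequenced, in which fewer cells of a type and less RNA per cell cannot be told apart. The sources used here do not say which part of Trem2 was deleted or whether each library was a separate animal; if some libraries share an animal, the p-values measure a spread that may be technical.

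Lysosomes are acidic compartments that break down proteins, sugar chains and lipids delivered by endocytosis and autophagy. Soluble hydrolases are mostly tagged with mannose 6-phosphate in the Golgi and carried to the lysosome, where a vacuolar proton pump supplies the acid they need, and TFEB and its relatives switch on many of their genes through a DNA element built around CACGTG. In liver, hepatocytes and Kupffer cells, the resident macrophages, are both rich in lysosomes, and Trem2 is a lipid-sensing receptor of macrophages that take up and digest lipid-rich debris.

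Counts per library ranged from 11591021 to 20399361. Trem2 itself was scarce, with 7, 26 and 26 counts in WT replicates 1, 2 and 3 and 9, 6 and 5 counts in KO replicates 4, 5 and 6 (log2 −1.30, SE 0.68, edgeR adjusted p = 0.633). WT replicate 1, at 0.436 counts per 1e6 counts (CPM), lay between KO replicates 6 and 4, at 0.328 and 0.817 CPM, so that Trem2 did not separate the labels and every direction below is between libraries as labelled. The share of counts from the mitochondrial genome was 8.16%, 12.7% and 10.2% in the WT libraries, in replicate order, and 28%, 9.08% and 19.8% in the KO libraries. The WT2, KO6 and KO4 libraries thus had the 3 highest mitochondrial shares.

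The lysosomal genes did not differ between WT and KO livers by more than the spread between libraries. By edgeR's quasi-likelihood test 0 of the 36 had an adjusted p under 0.05, against 0.0146% of all genes tested (2 genes), and the lowest adjusted p of a member was 0.662, of Hexa. At an unadjusted p under 0.05 there were again 0 of 36, against 8.58% of all genes. The members' log2 changes, KO over WT, ran from −0.76 to 0.34 with a median of −0.054, beside −0.0096 over all genes tested, and 13 members were fitted higher and 23 lower. In 1 member, Neu1, all KO values lay below all WT values (5.73% of all genes), and in 0 of 36 did they lie above (8.12%). DESeq2 called 0 of 36 (1.08% of the genes it tested). Voom with sample quality weights, in limma, called 8 of 36, all lower in KO, with 29.7% of all genes called. Those 8 were Asah1, Ctsc, Ctsh, Ctsl, Lamp1, Naglu, Npc2 and Scarb2, and that fit weighted WT replicate 3 at 5.53 and KO replicate 6 at 2.82 with the other libraries between 0.303 and 0.989. The 95% interval of the log2 change stayed within 1, which is 2-fold, in either direction for 25 of the 36, so that for those genes a larger change lies outside the interval; for the other 11 it does not.

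**Figure D1:**
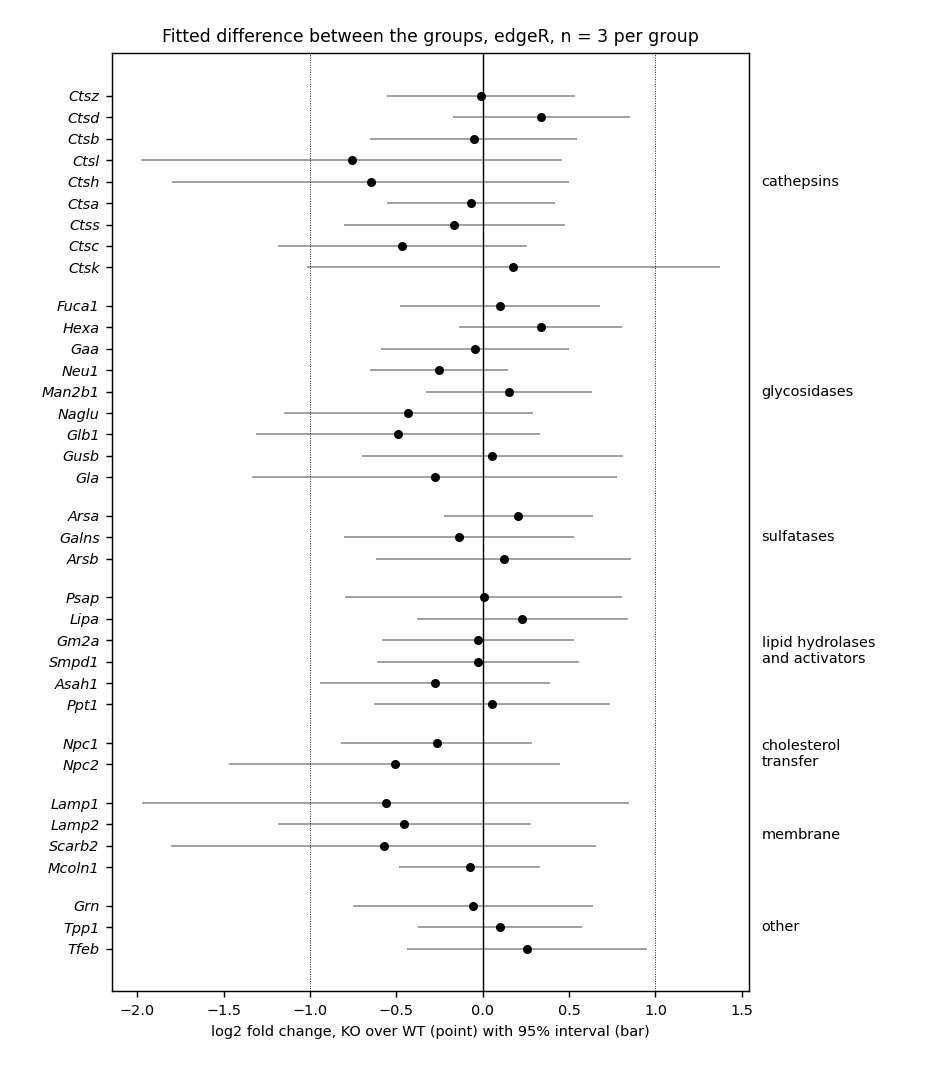
Log2 fold change of each of the 36 lysosomal genes, KO over WT (x axis; point, with its 95% interval from edgeR as a bar; n = 3 per group), by functional group. Every interval includes 0, and the widest are those of Lamp1, Ctsl, Scarb2, Ctsk and Ctsh; dotted lines mark a 2-fold change.

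Most members shared an order of the libraries that crossed the groups. In 20 of the 36 members (55.6%) the 3 highest libraries were WT1, WT3 and KO5, beside 21.3% of all genes tested. The converse set, WT2, KO4 and KO6, was the highest in 1 member, Tpp1, beside 19.7% of all genes. WT replicate 1 was the highest library for 22 members (61.1%, beside 27.2% of all genes), while WT replicate 2 was the lowest for 15 (41.7%, beside 14.1%) and KO replicate 4 for 14 (38.9%, beside 23.7%). The 36 genes together took 0.438%, 0.311% and 0.429% of all counts in WT replicates 1, 2 and 3 and 0.267%, 0.476% and 0.324% in KO replicates 4, 5 and 6. With mitochondrially encoded counts left out of the total these shares were 0.477%, 0.356% and 0.477%, and 0.371%, 0.523% and 0.404%, in the same order. WT2, KO4 and KO6, the low libraries, were those with the highest mitochondrial shares, and the part of that share in the members' levels was not tested.

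The members differed widely in their range over the libraries, which is measured here whatever the order of the libraries. The highest library exceeded the lowest 5.19-fold for Lamp1, 4.88-fold for Ctsl, 4.28-fold for Scarb2, 3.83-fold for Ctsh and 3.05-fold for Gla, the 5 members with a range above 3-fold. At the other end the range was 1.22-fold for Mcoln1, 1.32-fold for Ctsa, 1.36-fold for Neu1 and 1.37-fold for Tpp1. Among genes averaging at least 10 CPM, the median range was 1.75-fold for 31 members and 1.81-fold for all 7238 tested genes of that level. A fit that added the mitochondrial share (log2) as a term was chosen after seeing the data. In it 12 of 36 members were fitted lower, beside 6934 of 13693 genes. The median log2 change was 0.15 for the members and −0.0056 for all genes, and 0 members passed, beside 1 of all genes. There Lamp1 had a log2 change of 0.39 and Ctsl of 0.07, in place of −0.56 and −0.76. Without WT replicate 1 and KO replicate 4, also chosen after seeing the data, 10 members were fitted lower, beside 6751 of 14055 genes. The median was then 0.11 for the members and 0.017 for all genes, and 0 of all genes passed. The sign of the members' median therefore turned with these choices.

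**Figure D2:**
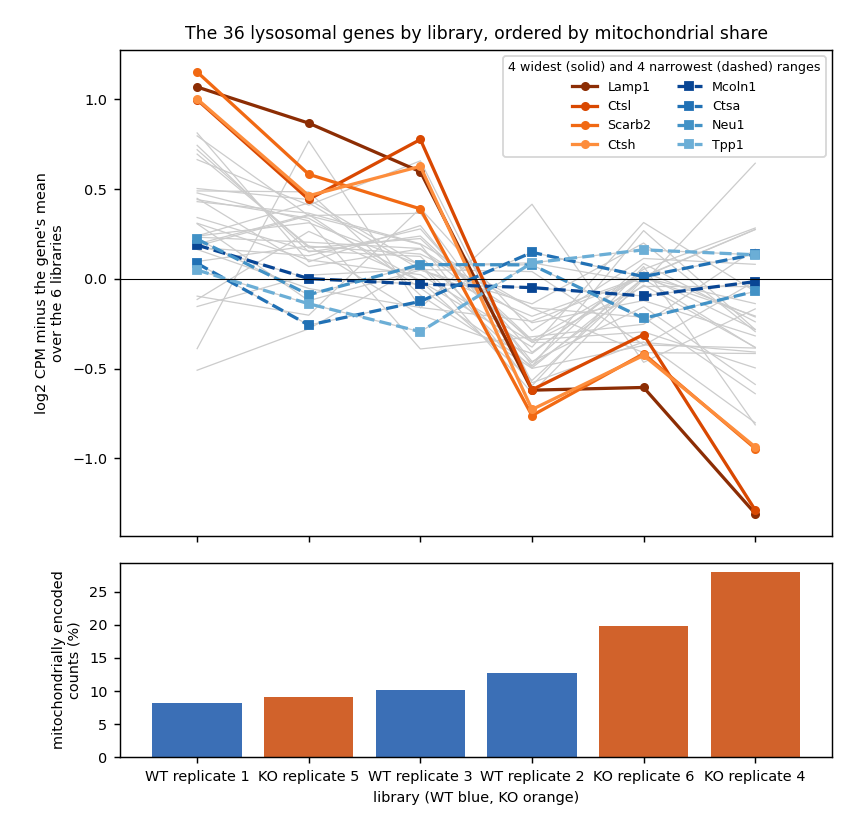
Log2 CPM of each of the 36 genes minus its own mean over the 6 libraries (upper panel, 1 line per gene; the 4 genes of widest range solid, the 4 of narrowest range dashed, others grey), with the libraries ordered by the percent of mitochondrially encoded counts (lower panel, bars). Lamp1, Ctsl, Scarb2 and Ctsh lie above their mean in WT1, KO5 and WT3 and below it in WT2, KO6 and KO4, while Mcoln1, Ctsa, Neu1 and Tpp1 stay closer to 0 in every library.

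The promoters of some members at both ends of this range held the CACGTG core of the TFEB element. RefSeq windows of 300 bases (GRCm38.p6, 250 before to 50 after an annotated start) were at hand for 31 members. Asah1, Ctsb, Ctsh, Galns and Npc1 had none in the table used. For 27 of the 31, bases just after the annotated start in a window matched a GENCODE transcript of the gene. That start need not be the outer end of the gene span used for counting. On searching CACGTG, which reads the same on both strands, 10 of the 31 members (32.3%) held it, beside 8.09% of 27025 genes. The longer core TCACGTGA, which contains CACGTG, was held by 4 of 31 (12.9%), namely Ctsa, Ctsd, Gla and Mcoln1, beside 1.12% of genes. The other 6 with CACGTG were Arsa, Ctsl, Gaa, Glb1, Lamp1 and Naglu. Of the members named above at either end of the range, Scarb2, Neu1 and Tpp1 held none, and Ctsh had no window. Shown here, as sense-strand stretches upstream of the start with CACGTG in capitals, are the 2 members with the widest range over libraries, Lamp1 (chr8:13159081-13159160, + strand) and Ctsl (chr13:64370731-64370770, − strand), and the 2 with the narrowest, Mcoln1 (chr8:3500429-3500498, + strand) and Ctsa (chr2:164833733-164833772, + strand).
Lamp1: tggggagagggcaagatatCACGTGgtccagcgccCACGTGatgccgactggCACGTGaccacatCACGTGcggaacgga
Ctsl: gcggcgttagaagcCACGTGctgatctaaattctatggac
Mcoln1: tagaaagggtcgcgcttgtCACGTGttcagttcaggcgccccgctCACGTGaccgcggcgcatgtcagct
Ctsa: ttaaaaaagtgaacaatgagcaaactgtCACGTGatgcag

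Lamp1 held 4 copies within 61 bases of its start, where 25 of the 27025 genes (0.093%) hold 3 or more copies in 1 window. Mcoln1 held 2 copies, at 71 and 45 bases upstream of the annotated start in its window, of which the nearer lies in TCACGTGA. Ctsa had 1 copy 12 bases upstream of 1 of its annotated starts and another 6 bases past it, both in TCACGTGA. The single copy of Ctsl lay 236 bases upstream of the annotated start in its window. The gene spans used for counting begin at 64370890 for Ctsl (− strand) and 164832873 for Ctsa (+ strand), so that both printed stretches lie inside them. The span of Mcoln1 begins at 3500457, within its printed stretch. The letters were thus found both in members whose levels varied most between libraries and in members that varied least, and a match describes the sequence only, not binding.

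Cathepsins are proteases of the lysosome, and 0 of the 9 passed the test. They had a median log2 change of −0.068, with 2 fitted higher and 7 lower; the median was −0.31 without KO replicate 5, −0.20 without WT replicate 2, −0.030 without KO replicate 4 and 0.16 with the mitochondrial term. Per kilobase of the deposited gene length, mean WT levels were 159 CPM per kilobase for Ctsz, 81.8 for Ctsd, 78.1 for Ctsb and 66.9 for Ctsl. They ran down to 8.03 for Ctss, 5.68 for Ctsc and 0.538 for Ctsk. Ctsd, Ctsb and Ctsl overlapped in their WT libraries on this scale. The order of genes depends on the lengths given, 1441 bases for Ctsz, 6051 for Ctsb and 6489 for Ctsl. Without division by length, mean WT levels were 230 CPM for Ctsz, 472 for Ctsb and 434 for Ctsl.

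Ctsl, cathepsin L, a cysteine endopeptidase, stood at 596, 195 and 512 CPM in WT replicates 1, 2 and 3 and at 122, 406 and 241 CPM in KO replicates 4, 5 and 6. WT2 lay below KO5 and KO6, and the groups overlapped (log2 −0.76, SE 0.53, edgeR adjusted p = 0.677). Its log2 change was −1.26 without KO replicate 5 and −0.43 without KO replicate 4. Ctsh, cathepsin H, mainly an aminopeptidase, had the same order, with 233, 70.2 and 179.6 CPM in WT and 60.8, 160.4 and 86.6 CPM in KO libraries (log2 −0.65, SE 0.50, edgeR adjusted p = 0.691), and −1.13 without KO replicate 5 and −0.29 without WT replicate 1 on the log2 scale. Ctsc, cathepsin C, which activates serine proteases of immune cells, stood at 45.5, 21.4 and 32 CPM and 19.3, 30.1 and 22.1 CPM. Its interval ran from −1.19 to 0.25, and that of Ctsl from −1.98 to 0.46.

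Ctsd, cathepsin D, the main aspartic protease, was the cathepsin fitted highest in KO. Its levels were 198, 165 and 213 CPM in WT and 205, 258 and 267 CPM in KO libraries, where only KO4 lay inside the WT range (log2 0.34, SE 0.22, edgeR adjusted p = 0.667). Ctsb, cathepsin B, another cysteine protease, stood at 517, 345 and 555 CPM and 395, 501 and 471 CPM, all KO libraries within the WT range. Ctsz, cathepsin Z, a carboxypeptidase, likewise had its KO values of 220.2, 244 and 220.3 CPM within the WT values of 281, 178 and 231 CPM.

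Ctsa, cathepsin A, a serine carboxypeptidase that also shields beta-galactosidase and neuraminidase, was among the steadiest members at 161, 168 and 139 CPM in WT and 167, 127 and 153 CPM in KO libraries. Its log2 change was −0.07, with an interval of −0.55 to 0.42. Ctss, cathepsin S, which trims the invariant chain in antigen-presenting cells, stood at 11.9, 10.4 and 10.5 CPM and 7.72, 13.5 and 7.82 CPM, with the highest and the lowest value both in KO libraries. Ctsk, cathepsin K, the collagen-degrading protease of osteoclasts, was close to the limit of detection at 10, 17 and 15 counts in WT and 8, 30 and 9 counts in KO libraries, too few to place its change more closely than −1.02 to 1.37.

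**Figure D3:**
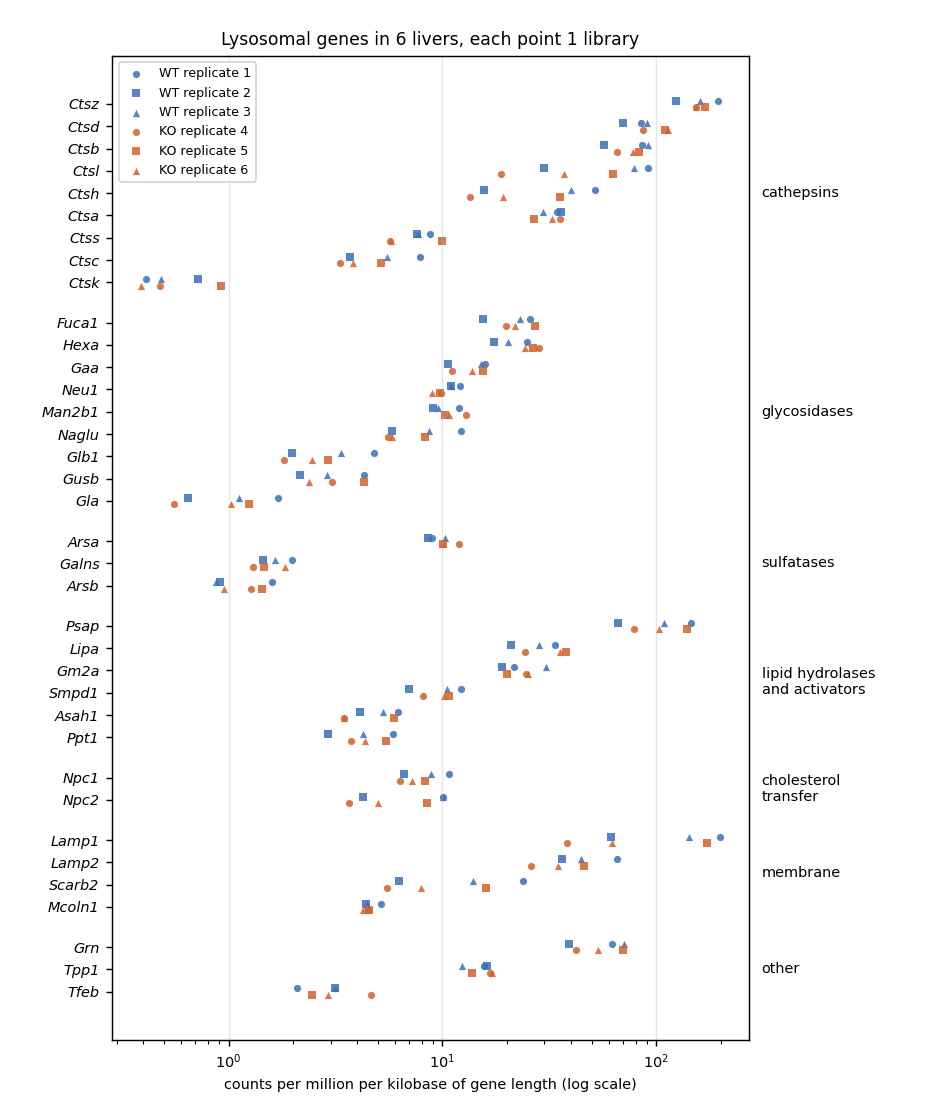
Level of each lysosomal gene in each library, in CPM per kilobase of gene length (x axis, log scale; WT blue, KO orange; 1 point per library), by functional group and ordered within it by the WT mean. The WT and KO ranges overlap in all rows but that of Neu1, and Lamp1, Ctsl, Scarb2 and Ctsh have the widest ranges.

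Glycosidases, which remove sugars from glycoproteins, glycogen, glycosaminoglycans and glycolipids, had a median log2 change of −0.047, with 4 of 9 fitted higher and 5 lower. That median was −0.21 without KO replicate 5 and 0.10 without WT replicate 1. Neu1, neuraminidase 1, which takes off terminal sialic acid, was the 1 member whose groups did not overlap. It stood at 45.1, 40.9 and 40.9 CPM in WT replicates 1, 2 and 3 and at 36.9, 36.4 and 33.2 CPM in KO replicates 4, 5 and 6, a mean of 42.3 ± 2.45 against 35.5 ± 1.98 CPM (SD, n = 3 each). The difference was small (log2 −0.25, SE 0.17, interval −0.65 to 0.15) and did not pass (edgeR adjusted p = 0.675). Neu1 lies on chromosome 17, as Trem2 does, at a distance of 13.4 Mb.

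Hexa, the alpha subunit of the hexosaminidase that degrades GM2 ganglioside, was fitted highest among the glycosidases. Its levels were 49.8, 34.9 and 40.5 CPM in WT and 56.7, 52.9 and 48.3 CPM in KO libraries, with KO4 and KO5 above every WT library and KO6 just below WT1 (log2 0.33, SE 0.20, edgeR adjusted p = 0.662). Man2b1, an alpha-mannosidase, stood at 96, 72.7 and 76.7 CPM and 104, 82.5 and 86.4 CPM, and Fuca1, an alpha-fucosidase, at 83.9, 50.5 and 75.1 CPM and 64.7, 88.4 and 71.5 CPM. In both, WT2 was the lowest of all 6 libraries and the groups overlapped.

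Glb1, beta-galactosidase, and Naglu, an enzyme of heparan sulfate breakdown, were the glycosidases fitted lowest. Glb1 had 14.4, 5.95 and 10.1 CPM in WT and 5.45, 8.75 and 7.36 CPM in KO libraries (log2 −0.49, SE 0.35), and Naglu 32.3, 15.4 and 23 CPM and 14.8, 22.1 and 15.4 CPM (log2 −0.43, SE 0.31). In each, WT2 lay among the KO values. Gla, the X-linked alpha-galactosidase lacking in Fabry disease, was scarce at 5.55, 2.11 and 3.65 CPM and 1.82, 4.08 and 3.35 CPM, and its interval, −1.33 to 0.78, passed 2-fold downwards. Gaa, acid alpha-glucosidase, which digests glycogen, had KO values of 53.1, 74.4 and 65.5 CPM inside the WT values of 75.9, 51 and 72.7 CPM, and Gusb, beta-glucuronidase, stood at 19.6, 9.86 and 13.1 CPM and 13.8, 19.5 and 10.8 CPM with a log2 change of 0.06.

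Of the 3 sulfatases, which strip sulfate from lipids and glycosaminoglycans, 0 passed the test. Arsa, arylsulfatase A, which acts on sulfatide, stood at 32.8, 31.6 and 37.8 CPM in WT and 44.1, 37 and 36.8 CPM in KO libraries, with KO4 the highest (log2 0.21, SE 0.19, edgeR adjusted p = 0.727). Galns, which desulfates keratan sulfate, had 5.23, 3.84 and 4.38 CPM and 3.45, 3.89 and 4.86 CPM, and Arsb, arylsulfatase B, 9.6, 5.51 and 5.25 CPM and 7.72, 8.61 and 5.78 CPM, both with groups that overlapped. None of the 3 had WT1, WT3 and KO5 as its 3 highest libraries, unlike 6 of 9 cathepsins and 5 of 9 glycosidases, a difference between groups that was not tested.

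Lipid hydrolases and their activators, which digest the lipids that reach the lysosome, had a median log2 change of −0.011, with 3 of 6 fitted higher and 3 lower, and all 6 intervals stayed within 2-fold. That median was −0.20 without WT replicate 2, 0.22 without WT replicate 1, 0.12 without KO replicate 4, and 0.33 with the mitochondrial term. Lipa, lysosomal acid lipase, which frees cholesterol and fatty acids from the esters of engulfed lipoproteins, stood at 100.1, 62.4 and 84.4 CPM in WT and 71.9, 112 and 105 CPM in KO libraries. KO5 and KO6 exceeded all WT libraries and KO4 lay between WT2 and WT3 (log2 0.23, SE 0.26, edgeR adjusted p = 0.776). Psap, prosaposin, the precursor of the saposins that present sphingolipids to their hydrolases, was the most abundant of this group per length, at 107 CPM per kilobase in WT and 107 in KO on average. Its CPM values were 399, 181 and 297 in WT and 216, 382 and 281 in KO libraries, with WT1 and KO5 both high and WT2 and KO4 both low (log2 change interval −0.80 to 0.81).

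Smpd1, acid sphingomyelinase, stood at 40.6, 23.2 and 35 CPM in WT and 27.2, 35.7 and 34 CPM in KO libraries, all KO values within the WT range (log2 −0.03). Asah1, acid ceramidase, had 21.1, 14 and 17.9 CPM and 11.7, 20.1 and 11.8 CPM, with KO4 and KO6 the lowest (log2 −0.27, SE 0.29, edgeR adjusted p = 0.755). Gm2a, the GM2 activator protein, stood at 89.5, 78.3 and 126 CPM and 101, 83.1 and 104 CPM. Ppt1, a thioesterase that removes palmitate from proteins, had 21.5, 10.7 and 15.7 CPM and 13.7, 20 and 15.9 CPM. Its gene span overlaps that of Cap1 on the other strand, which had 355% of the counts of Ppt1, and the sources used here do not say whether counting used strand, so that its level is uncertain.

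The 2 proteins that pass cholesterol out of the lysosome were both fitted lower without passing. Npc2, which carries cholesterol in the lumen, stood at 54.7, 23.1 and 54.5 CPM in WT and 19.8, 45.9 and 27.1 CPM in KO libraries (log2 −0.51, SE 0.41, edgeR adjusted p = 0.704). Npc1, the membrane protein that receives it, had 115, 71.2 and 94.7 CPM and 67.7, 88.5 and 77.6 CPM (log2 −0.27, SE 0.24, edgeR adjusted p = 0.726). In both genes the order of the libraries, WT1, WT3 and KO5 above the rest, was that of Ctsl.

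The 4 membrane proteins of the lysosome include both the widest and the narrowest range over libraries among the 36. All 4 were fitted lower in KO, with a median log2 change of −0.51, and 0 of 4 passed. Lamp1, a heavily glycosylated protein that lines the membrane, stood at 530.3, 164 and 382 CPM in WT replicates 1, 2 and 3 and at 102, 461 and 166 CPM in KO replicates 4, 5 and 6. KO5 lay between WT1 and WT3, and WT2 lay with KO4 and KO6 (log2 −0.56, SE 0.61, interval −1.97 to 0.85, edgeR adjusted p = 0.763). Single libraries moved that log2 change to −1.43 (KO5 left out), −0.17 (WT1 left out) or −0.20 (KO4 left out). Lamp2, its relative with a part in autophagy, had 625, 345 and 424 CPM and 248, 438 and 333 CPM (log2 −0.45, SE 0.32), again with WT2 below KO5.

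Scarb2, which carries beta-glucocerebrosidase to the lysosome, followed Lamp1 with 149, 39.5 and 87.8 CPM in WT and 34.8, 100.3 and 50.2 CPM in KO libraries (log2 −0.57, SE 0.53, edgeR adjusted p = 0.731). Its log2 change was −1.12 without KO replicate 5 and −0.043 without WT replicate 1. Mcoln1, the calcium channel mucolipin 1, was the steadiest of the 36 genes at 39, 33.1 and 33.6 CPM and 33.9, 34.3 and 32 CPM, with an interval of −0.49 to 0.33. Lamp1 and Mcoln1, the members of widest and narrowest range, both have the CACGTG core near an annotated start, in the sequences printed with the promoters.

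Of the remaining members, Grn, progranulin, a secreted and lysosomal glycoprotein that is cut into granulins, stood at 216, 136 and 245 CPM in WT and 146, 243 and 185 CPM in KO libraries (log2 −0.05). Tpp1, a tripeptidyl peptidase, had 81.1, 83.4 and 63.9 CPM and 86, 71.2 and 87.7 CPM, an interval of −0.37 to 0.57. Tfeb, the transcription factor that drives lysosomal genes, stood at 11.8, 17.9 and 17.8 CPM and 26.3, 13.9 and 16.6 CPM (log2 0.25, SE 0.30, edgeR adjusted p = 0.781). KO4 was the highest library for Tfeb (as in 19.9% of all genes tested) and WT1 the lowest (28.9%). For Lamp1 WT1 was the highest (27.2%) and KO4 the lowest (23.7%). A relation between Tfeb and Lamp1 was not tested. Tfeb (mm10 chromosome 17, 47737030 to 47792419) lies 0.554 Mb from Trem2 on the same chromosome.

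The wider lysosomal pathway likewise showed no gene past the threshold. Over 6 further lists, 118 of 120 genes were tested, 52 were fitted higher and 66 lower, with a median log2 change of −0.060 and 0 past an adjusted p of 0.05. At an unadjusted p under 0.05 there were 2, Rptor and Mtor, beside 8.58% of all genes. Both are of the MiT/TFE and mTORC1 list, as subunits of the growth kinase complex mTORC1 that holds TFEB in the cytosol. They were among 4 of the 118 genes with KO values above all WT values (8.12% of all genes), and in 2 of the 118 all KO values lay below (5.73%). Rptor stood at 26.7, 27.9 and 25.6 CPM in WT and 44.5, 35.6 and 39.7 CPM in KO libraries (log2 0.58, SE 0.18, edgeR adjusted p = 0.437), and Mtor at 32.3, 39.1 and 29.9 CPM and 57.5, 43.5 and 46.4 CPM (log2 0.54, SE 0.21, edgeR adjusted p = 0.533). Over all 16 tested genes of that list the median was −0.12, with 6 fitted higher.

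Hydrolases outside the 36 had a median log2 change of −0.021, with 15 of 31 tested fitted higher. Dnase2a, an acid DNase, had a log2 change of 0.51 (edgeR adjusted p = 0.616), and Hyal1, a hyaluronidase, of −0.996 (edgeR adjusted p = 0.623). Other membrane proteins had a median of 0.079, with 12 of 21 fitted higher. There Tpcn2, a cation channel of endolysosomes, stood at 2.24, 3.97 and 4.91 CPM and 8.27, 4.31 and 7.42 CPM, and Cd63, a tetraspanin, at 5.86, 9.6 and 8.22 CPM and 17.3, 15 and 7.36 CPM, neither passing.

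Subunits of the vacuolar proton pump had a median of −0.14, with 7 of 18 fitted higher. The 2 with the smallest p were Atp6v1d (log2 −0.50, edgeR adjusted p = 0.671) and Atp6v1b2 (log2 −0.29, edgeR adjusted p = 0.685), both of the cytosolic V1 part. The mannose 6-phosphate and sorting list had a median of −0.084, with 6 of 13 fitted higher. Its member Sort1, the sorting receptor sortilin, stood at 8.72, 6.08 and 8.51 CPM in WT and 5.54, 5.7 and 3.81 CPM in KO libraries (log2 −0.63, SE 0.28, edgeR adjusted p = 0.597). All KO values of Sort1 lay below all WT values, as in 5.73% of all genes. Gga1, a Golgi adaptor, had a log2 change of 0.27. Autophagy genes had a median of −0.19, with 6 of 19 fitted higher, the lowest p belonging to Atg9a (log2 −0.69) and Vps11 (log2 0.34). WT1, WT3 and KO5 were the 3 highest libraries in 14 of 31 other hydrolases (45.2%), 8 of 18 pump genes (44.4%), 8 of 19 autophagy genes (42.1%), 5 of 13 sorting genes (38.5%) and 6 of 16 genes of the MiT/TFE and mTORC1 list (37.5%), beside 21.3% of all genes. In other membrane proteins that order was met in 4 of 21 (19%) and the converse set was highest in 5 of 21 (23.8%), so that they did not follow the members.

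**Figure D4:**
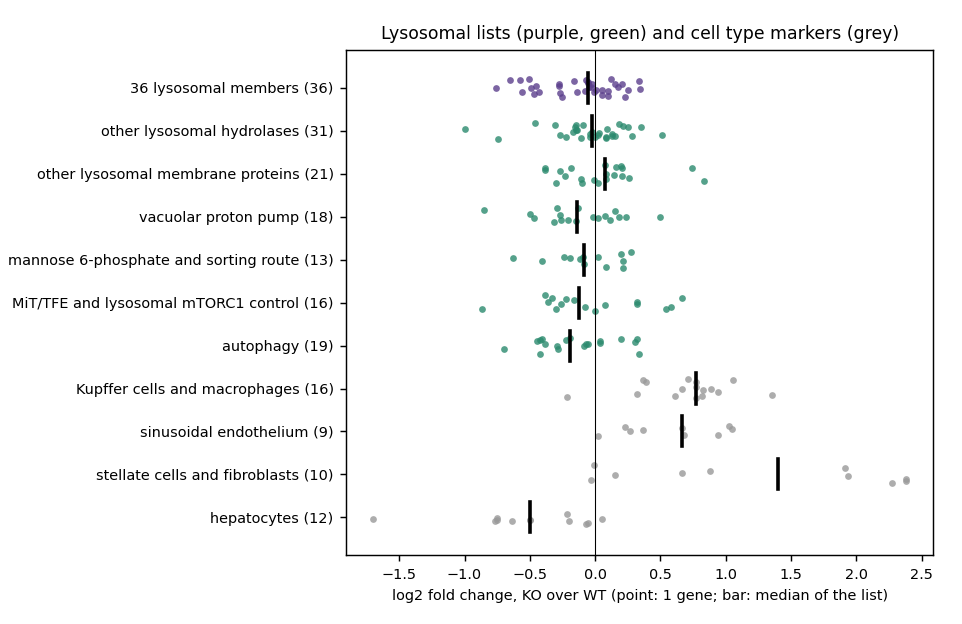
Log2 fold change, KO over WT (x axis), of each tested gene (points) and the median (black bar) of the 36 lysosomal members (purple), 6 further lysosomal lists (green) and 4 cell type marker lists (grey), with the number of genes tested in brackets. The medians of the lysosomal lists lie between −0.19 and 0.079, those of macrophage, endothelial and stellate markers between 0.67 and 1.40, and that of hepatocyte markers at −0.50.

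Markers of several cell types of the liver were fitted further apart between the groups than the members. Of 16 Kupffer cell and macrophage markers 15 were fitted higher in KO (49.1% of all genes), with a median log2 change of 0.77. Of these 16 markers, 8 had an unadjusted p under 0.05 (8.58% of all genes) and 9 had KO values above all WT values (8.12%). Their summed level lay between 198 and 271 CPM in WT and between 325 and 390 CPM in KO libraries, and 0 of 16 were at 0 in any library. Csf1r, the receptor for macrophage survival signals, stood at 12.3, 16.5 and 16.9 CPM in WT and 31.3, 24.7 and 28.5 CPM in KO libraries (edgeR adjusted p = 0.391), and Cd163, which clears haemoglobin bound to haptoglobin, was fitted at log2 1.35 (edgeR adjusted p = 0.400). No marker of any list passed over all genes, the lowest adjusted p being 0.37. The 36 lysosomal genes summed to between 2761 and 5008 CPM in WT and between 2810 and 4329 CPM in KO libraries, and the 9 cathepsins to between 1154 and 2045 and between 1198 and 1741 CPM. The part of cell composition in the members' levels was not tested.

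Hepatocyte markers went the other way, with 11 of 12 fitted lower, a median of −0.50 and sums of 81740 to 121460 CPM in WT and 81338 to 87863 CPM in KO libraries. In 6 of the 12 the 3 highest libraries were WT1, WT3 and KO5, against 1 of 16 macrophage markers. Cps1, of the urea cycle, stood at 2198, 574 and 1408 CPM in WT and 198, 724 and 363 CPM in KO libraries, and Serpina1a, a protease inhibitor of plasma, had a log2 change of −0.64. Sinusoidal endothelial markers were fitted higher in 9 of 9 (median 0.67; Eng 1.04 and Cdh5 0.67 on the log2 scale), with sums of 185 to 246 CPM in WT and 293 to 439 CPM in KO. Markers of stellate cells and fibroblasts were higher in 8 of 10 (median 1.40; Col3a1 2.28 and Col1a1 2.38), with sums of 164 to 194 and 198 to 506 CPM.

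Lipid-associated macrophage markers had a median of 0.27 with 5 of 6 tested fitted higher (Lgals3 1.64, Fabp5 −1.67) and Gpnmb at 0 in at least 1 library. Fabp5 stood at 33.2, 5.76 and 9.92 CPM in WT replicates 1, 2 and 3. In KO replicates 4, 5 and 6 it stood at 6.18, 5.84 and 3.35 CPM, so that the groups overlapped and WT1 lay far above every other library. Monocyte and neutrophil markers had a median of 0.39 over 5 of 8 tested, with 3 fitted higher and 2 lower. The lower ones were S100a8 (−1.25) and S100a9 (−0.90). S100a9 had 80, 12 and 18 counts in WT replicates 1, 2 and 3 and 9, 24 and 24 counts in KO replicates 4, 5 and 6. Markers of B, T and NK cells had a median of 0.21 over 4 of 9 tested (Cd79a −1.12, Nkg7 0.62). The sums of the monocyte and neutrophil markers and of the B, T and NK cell markers were at most 12.03 and 8.08 CPM in any library, in that order. Bile duct markers had a median of 0.21 over 5 of 6 (Krt19 0.69, Sox9 −0.66), and of 5 adipocyte markers Adipoq, Plin1 and Lep were at 0 in at least 1 library while Fabp4 and Cfd had log2 changes of 1.46 and 0.84.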

How the data were processed

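The authors deposited whole-number read counts per gene for the 6 liver libraries, with a gene length, and FPKM values (fragments per kilobase and library size). The submitters' processing notes name build mm10, featureCounts 1.5.0-p3, HISAT2 2.0.5 and DESeq2 1.16.1 without settings; the annotation used and the strandedness are not stated there or in the labels. The library size behind each deposited FPKM equals that library's DESeq2 size factor multiplied by the totals' geometric mean. Poly(A) or other selection is not described beyond the TruSeq kit and Trizol extraction per the labels.

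WT (n = 3) and KO (n = 3) were compared with edgeR 4.0.16 (quasi-likelihood test, TMM, filterByExpr, R 4.3.3), p-values adjusted by Benjamini-Hochberg over 13693 genes. The biological coefficient of variation was 34.7%. A 95% interval is the log2 change ± its SE times the t quantile at 7.81 degrees of freedom. Levels are TMM-scaled CPM. Alternatives used DESeq2 1.42.0, limma 3.58.1 (voom with and without sample weights, and FPKM with pseudocounts of 1 and 0.1), other scalings and filters, and each library left out. No pair of libraries agreed within sampling noise (chi-square per degree of freedom at least 46.9). edgeR, DESeq2 and voom without sample weights were tested on simulated counts; the weighted fit was not. There edgeR recovered few of the smallest changes and made somewhat more false calls than its threshold allows. DESeq2 made a larger share of false calls, and the limit set on that share was, after this was seen, kept for edgeR alone. All 36 members are named; of other lists, up to 4 genes with adjusted p under 0.05, otherwise the 2 with the smallest p. Members and lists were chosen with earlier results of these data known.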

Additional observations from a re-analysis of the deposited data

How the results depend on the processing

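The count of 0 members past the threshold was met in all settings except voom with sample quality weights, which called 8. The share of all genes called was 0.0146% in the main test, 1.08% with DESeq2, 0.248% without a filter and 29.7% with quality weights. It was 0.0073% with voom without weights, by library size alone and with the mitochondrial covariate. With 1 library left out it was 0.0072% without KO replicate 5 and 0% for every other library. It was also 0% without WT replicate 1 and KO replicate 4 together. Where almost no gene was called, a count of 0 members says little about them. With the mitochondrial share as a covariate, 12 members were fitted lower and the medians of cathepsins, glycosidases and lipid hydrolases were 0.16, 0.22 and 0.33; without WT replicate 1 and KO replicate 4, 10 were fitted lower and these medians were 0.040, 0.18 and 0.35. The cause was not tested. Signs turned for Psap with DESeq2 (−0.041) and, by library size alone, for Ctsz (0.020) and Smpd1 (0.011). Leaving out 1 library moved the members' median between −0.22 and 0.011 and the number fitted lower between 16 and 28, and turned the sign of 17 members, whose log2 changes ranged as follows: Ctsa −0.17 to 0.031, Ctsb −0.24 to 0.048, Ctsk −0.31 to 0.43, Ctsz −0.17 to 0.16, Gla −0.56 to 0.10, Gaa −0.21 to 0.071, Gusb −0.21 to 0.36, Fuca1 −0.093 to 0.25, Arsb −0.066 to 0.45, Smpd1 −0.23 to 0.15, Ppt1 −0.17 to 0.32, Psap −0.25 to 0.29, Gm2a −0.17 to 0.17, Mcoln1 −0.14 to 0.0015, Tpp1 −0.037 to 0.19, Grn −0.27 to 0.11 and Tfeb −0.056 to 0.43. Of the other 19, Ctsd and Neu1 moved by less than 1.5 times, and the rest kept their sign over these ranges: Ctsc −0.70 to −0.17, Ctsh −1.13 to −0.29, Ctsl −1.26 to −0.43, Ctss −0.49 to −0.03, Hexa 0.21 to 0.48, Glb1 −0.76 to −0.16, Naglu −0.67 to −0.14, Man2b1 0.045 to 0.28, Galns −0.29 to −0.015, Arsa 0.12 to 0.26, Lipa 0.059 to 0.40, Asah1 −0.59 to −0.13, Npc1 −0.43 to −0.092, Npc2 −0.92 to −0.27, Lamp1 −1.43 to −0.17, Lamp2 −0.69 to −0.18 and Scarb2 −1.12 to −0.043. No paired analysis was run, because the groups share no replicate number and no litter was at hand for any library. An effect of litter was therefore not tested. With 3 libraries a group, 11 of 36 intervals reach beyond 2-fold, and Ctsk, at 8 to 30 counts, is limited by depth as well. Ctsa, Ctsb, Ctsz, Ppt1 and Npc1 overlap a gene on the other strand that has over 10% of their counts.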
